A study of Homo sapiens with 6 samples.

Results

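The set described here is 33 genes of glucose uptake, glycolysis and lactate handling, taken by symbol from the 60240 genes of an RNA-seq count table. It holds 2 glucose transporters, 9 genes of upper glycolysis, 3 bifunctional enzymes that set fructose-2,6-bisphosphate, 7 genes of lower glycolysis, 4 lactate enzymes and transporters, 6 genes that govern pyruvate entry into mitochondria, and 2 genes of gluconeogenesis and glycogen. All 33 symbols matched a row of the table. Expression was measured in HCT116, a human colorectal carcinoma cell line, in 3 libraries of wild-type cells (WT) and 3 libraries of cells without LSD1 (LSD1 KO), each group with replicates numbered 1 to 3. LSD1, encoded by KDM1A, removes methyl groups from lysine 4 of histone H3. It was disrupted by CRISPR/Cas9 aimed at exon 1, and single clones were expanded after puromycin selection. The study states in general that its experiments had biological replicates, unless specified otherwise. How many clones stand behind the 3 LSD1 KO libraries, and whether libraries came from separate cultures, was not given in the sources used here. The p-values therefore measure only the spread between these libraries. Both groups carried no other labelled change and were grown in the same medium.

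Total counts ranged from 25379279 to 29186963 per library, and the 33 genes took between 1.51% and 2.16% of them. KDM1A, the targeted gene, stood at 231, 224 and 214 CPM (counts scaled to a common library size with TMM factors) in WT replicates 1, 2 and 3 and at 29.9, 27.6 and 27.8 CPM in LSD1 KO, a log2 difference of -2.97 ± 0.15 (SE, n = 3 per group; edgeR quasi-likelihood q = 0.00045). Of 11 markers of intestinal epithelium, 6 (EPCAM, CDH1, KRT8, KRT18, KRT19 and CDX2) reached 1 CPM in every library. CDX1 was at 0 in every library, and KRT20, VIL1, CDH17 and LGR5 were below 1 CPM in every library. The summed epithelial markers ranged from 2044 to 3820 CPM in WT and from 2421 to 3160 CPM in LSD1 KO. Single markers moved apart: EPCAM ranged from 172.8 to 248 CPM in WT and from 77.6 to 133.9 CPM in LSD1 KO, and KRT18 from 396 to 667 and from 348 to 375 CPM, both with no overlap, while KRT19 had a higher mean in LSD1 KO. Of 4 fibroblast markers only COL1A1 passed 1 CPM in every library, and the sum was 20.5 to 24.2 CPM in WT against 30.3 to 34.4 CPM in LSD1 KO. Of 3 leukocyte markers only CD68 did so, CD3E was at 0 throughout, and the sum was 16.1 to 19.7 CPM against 22.2 to 32.7 CPM. The endothelial markers CDH5 and VWF summed to at most 1.36 CPM. The part of these marker differences in the results was not tested. In bulk RNA, fewer cells expressing a gene and less RNA per cell cannot be told apart.

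Glycolysis splits glucose into pyruvate in the cytosol, yielding ATP and NADH. Glucose enters through facilitative transporters, is trapped by hexokinase and is committed by phosphofructokinase, whose strongest activator, fructose-2,6-bisphosphate, is made and removed by the PFKFB enzymes. Pyruvate is then either reduced to lactate and exported with a proton, or carried into mitochondria and oxidised by pyruvate dehydrogenase, which the PDK kinases switch off. Many tumour cells run the lactate branch even with oxygen present, and several of these genes are known targets of the hypoxia-inducible factors.

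Of the 33 genes, 32 had enough counts to be tested among 17672 genes. With WT and LSD1 KO compared without regard to replicate number, none of the 32 passed a q value (Benjamini-Hochberg adjusted p, edgeR quasi-likelihood test) of 0.1, where 0.00566% of all genes tested did, the single one being KDM1A. At an unadjusted p under 0.05, 2 of the 32 were past the threshold, both higher in LSD1 KO (SLC2A3 and HK2), against 3.12% of all genes, 1.89% higher. Same-numbered WT and LSD1 KO libraries deviated together from their group means, so the replicate number was also fitted as a block. With the block, 2 of the 32 rose (SLC2A3 and ALDOC) and none fell, where 1.6% of all genes passed, 1.05% higher and 0.549% lower. At an unadjusted p under 0.05 in the blocked fit, 9 of the 32 were higher and none was lower, where 13.4% of all genes passed, 7.24% higher and 6.19% lower. DESeq2 called 1 of the 33 without the block (SLC2A3), with 0.376% of all genes called, 0.225% higher, and 5 with it (SLC2A3, ALDOC, GPI, HK2 and ALDOA), with 4.21% of all genes called, 2.53% higher. Keeping every gene with a count in the edgeR fit without the block called 1, SLC2A3, with 0.337% of all genes called. With the block and pair 1, 2 or 3 left out, 2, 4 and 2 of the 32 were called, where 2.4%, 5.85% and 1.12% of all genes were. The median log2 difference of the 32 was 0.07 without the block and 0.09 with it, where the medians of all genes tested were 0.00082 and 0.003.

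SLC2A3, which encodes the high-affinity glucose transporter GLUT3, moved most. It stood at 15.6, 31 and 29.4 CPM in WT replicates 1, 2 and 3 and at 40.5, 91.4 and 82.8 CPM in LSD1 KO. Every LSD1 KO library was above every WT library, and replicate 1 was the lowest in both groups. The means were 25.3 ± 8.46 and 71.6 ± 27.2 CPM (SD, n = 3 each). The log2 difference was 1.5 ± 0.35 without the block (SE; edgeR q = 0.639) and 1.48 ± 0.09 with it (edgeR q = 0.001), a 2.79-fold rise in the blocked fit with a 95% interval of 1.26 to 1.70 on the log2 scale. With 1 pair left out under the block, it ranged from 1.42 to 1.53 and passed the threshold each time. The SLC2A3 transcripts share 27.7% of their 31-base words with other genes, 22.3% with the neighbouring paralogue SLC2A14, which held 5 counts over all 6 libraries. SLC2A3 lies at 7919230 to 7936187 on chromosome 12 (GRCh38), and its promoter had no entry in the RefSeq window table.

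SLC2A1, encoding GLUT1, the basal glucose transporter of most cell types, did not rise. Its values were 87.1, 83.9 and 86.8 CPM in WT and 83.2, 67.6 and 79.0 CPM in LSD1 KO, so all 3 LSD1 KO libraries were below all 3 WT libraries. The log2 difference was -0.17 ± 0.15 without the block and -0.17 ± 0.09 with it (SE; edgeR q = 0.472 with the block), with a 95% interval in the blocked fit of -0.38 to 0.04. Per kilobase of transcript, SLC2A3 made up 13.7%, 24.6% and 23.0% of the summed SLC2A1 and SLC2A3 level in WT and 30.1%, 54.4% and 48.1% in LSD1 KO. The share rose in each same-numbered pair, from a mean of 20.4% ± 5.91 to 44.2% ± 12.6 (SD, n = 3 each), with no overlap between groups. An exact two-sided permutation test, which took no account of replicate number, gave p = 0.1, the smallest p that 3 against 3 libraries allow. The summed level of both transporters was 29.8, 32.9 and 33.3 CPM per kb in WT and 35.2, 43.9 and 45 CPM per kb in LSD1 KO.

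Upper glycolysis runs from hexokinase to triose phosphate isomerase, and 6 of its 9 genes were higher in LSD1 KO in all 3 same-numbered pairs (HK1, HK2, GPI, PFKM, ALDOA and ALDOC), where 18.8% of all genes tested were. For 5 of the 9 (these without PFKM) the unadjusted p was under 0.05 in the blocked fit, where 7.24% of all genes were higher at that p, and 1, ALDOC, passed the q threshold. ALDOC, the brain-type isoenzyme of aldolase, which cleaves fructose-1,6-bisphosphate, stood at 27.1, 66.4 and 54.9 CPM in WT and at 56.4, 150.3 and 66.4 CPM in LSD1 KO. The groups overlapped, since LSD1 KO replicate 1 lay below WT replicate 2, and the library highest of all was LSD1 KO replicate 2. Means were 49.5 ± 20.2 and 91.0 ± 51.6 CPM (SD, n = 3 each). The log2 difference was 0.88 ± 0.43 without the block (SE; edgeR q = 1.00) and 0.84 ± 0.17 with it (edgeR q = 0.077), or 1.79-fold with the block. With pair 1, 2 or 3 left out under the block it was 0.73, 0.64 and 1.12 (edgeR q = 0.097, 0.007 and 0.002). These passed the threshold each time, narrowly without pair 1. Without LSD1 KO replicate 2 in the fit with no block, the log2 difference was 0.29.

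ALDOA, the main aldolase of most tissues and of these cells, was at 896, 1642 and 1199 CPM in WT and at 1084, 2121 and 1393 CPM in LSD1 KO. In both groups replicate 2 was highest and replicate 1 lowest, and the spread between replicates exceeded the difference within any pair. ALDOA differed by 0.29 ± 0.08 on the log2 scale with the block (SE; edgeR q = 0.192), and DESeq2 with the block gave q = 0.066. Without LSD1 KO replicate 2, the fit with no block gave -0.03 for ALDOA. ALDOA shares 43.0% of its 31-base words with other genes, 38.7% with a second annotated gene at the same locus that was listed at 64.5 to 88.1 CPM, so its counts may be divided between the pair. Per kilobase, ALDOC made up 2.99%, 3.96% and 4.47% of the summed aldolase level in WT and 5.03%, 6.74% and 4.64% in LSD1 KO. The groups did not overlap (exact permutation p = 0.1, the smallest possible).

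HK2, the inducible hexokinase of many tumours, stood at 79.0, 68.4 and 82.6 CPM in WT and at 102, 98.8 and 101 CPM in LSD1 KO. The groups did not overlap, and the LSD1 KO libraries lay closer together than the WT libraries. HK2 differed by 0.39 ± 0.15 on the log2 scale without the block (SE; edgeR q = 1.00) and 0.40 ± 0.09 with it (edgeR q = 0.117), and DESeq2 with the block gave q = 0.030. HK1, the hexokinase found in most tissues, was at 79.1, 123 and 124 CPM in WT and at 104, 152 and 143 CPM in LSD1 KO, higher in each pair but overlapping between groups, with a log2 difference of 0.31 ± 0.09 in the blocked fit (SE; edgeR q = 0.182). The HK2 share of the 2 hexokinases per kilobase was 31.8% ± 6.53 in WT and 33% ± 4.83 in LSD1 KO (SD, n = 3 each; exact permutation p = 0.8). In replicates 1, 2 and 3 it was 39.0%, 26.3% and 30.0% in WT and 38.5%, 29.4% and 31.1% in LSD1 KO. The share thus had no direction that held in all 3 same-numbered pairs, and the permutation took no account of that pairing.

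GPI, which interconverts glucose-6-phosphate and fructose-6-phosphate, was at 503, 630 and 603 CPM in WT and at 700, 752 and 770 CPM in LSD1 KO. All LSD1 KO libraries were above all WT libraries, by 0.36 ± 0.17 on the log2 scale without the block (SE; edgeR q = 1.00) and 0.36 ± 0.09 with it (edgeR q = 0.129), and DESeq2 with the block gave q = 0.011. The 3 phosphofructokinase genes PFKL, PFKM and PFKP, whose products form the tetramer of the committed step, differed by 0.06 to 0.11 on the log2 scale in the blocked fit, with none past the threshold. Their upper 95% bounds were 0.38, 0.32 and 0.27. TPI1, triose phosphate isomerase, differed by -0.07, with an interval of -0.30 to 0.17.

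**Figure D1:**
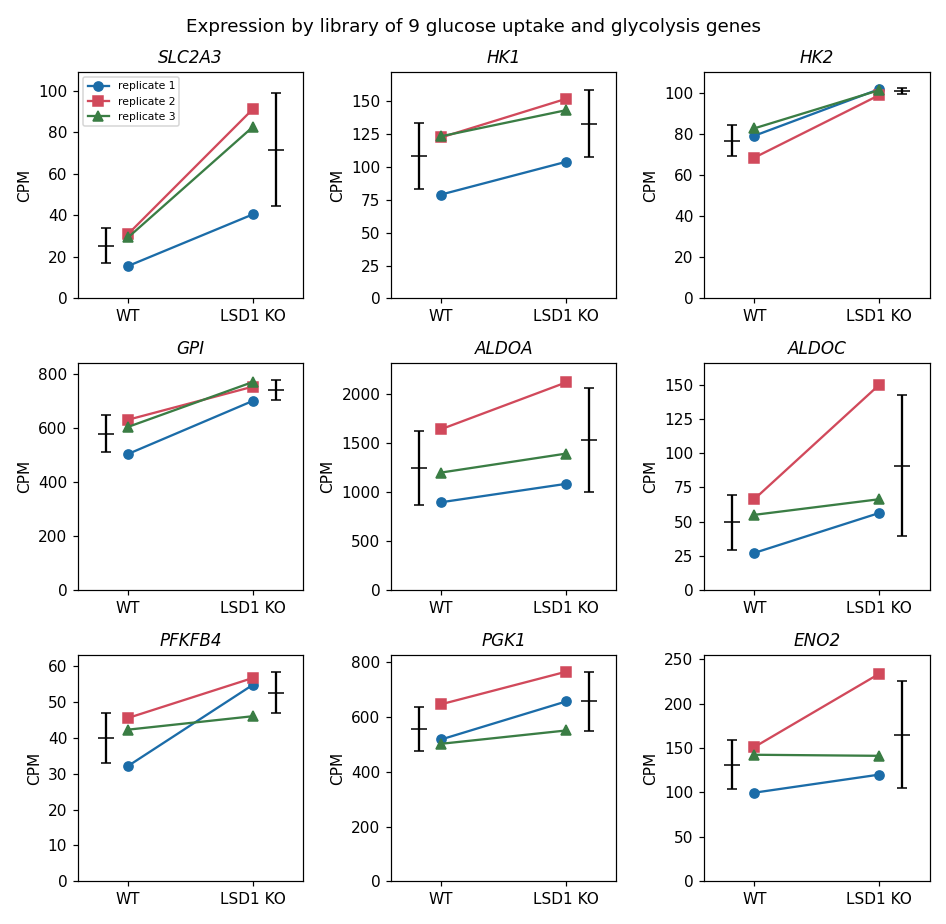
CPM by library (y axis, from 0) in WT and LSD1 KO for the 9 genes with an unadjusted p under 0.05 in the blocked fit. Points joined by a line share a replicate number, and the bars beside them show the mean and SD of 3 libraries. The HK1 lines climb nearly in parallel from different starting levels, within the SLC2A3 panel the lines of replicates 2 and 3 climb further than that of replicate 1, and the ENO2 line of replicate 3 is level.

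The promoters of ALDOC, HK2 and GPI are shown as examples, chosen after their values were seen, from the genes called in at least 1 blocked fit. ALDOA and PFKFB4, also called in at least 1, are not shown. Each RefSeq window covers 300 bases around an annotated start on GRCh38.p14, given on the strand of the gene. Capitals mark ACGTG and GCGTG on either strand (CACGT and CACGC when read on the other one), the core letters of the hypoxia response element. CACGTG, the E-box that MYC is known to read, holds ACGTG on both strands and so counts as 2 matches to it. HK2 has a second window, not shown, at chr2:74833877-74834176. That window spans the annotated gene start at 74834127 and held 2 ACGTG, 1 GCGTG and no CACGTG. The HK2 window shown lies further downstream, inside the gene. The GPI window shown also lies inside its gene, downstream of the annotated gene start at 34359718.
ALDOC (chr17:28576846-28577145, minus strand): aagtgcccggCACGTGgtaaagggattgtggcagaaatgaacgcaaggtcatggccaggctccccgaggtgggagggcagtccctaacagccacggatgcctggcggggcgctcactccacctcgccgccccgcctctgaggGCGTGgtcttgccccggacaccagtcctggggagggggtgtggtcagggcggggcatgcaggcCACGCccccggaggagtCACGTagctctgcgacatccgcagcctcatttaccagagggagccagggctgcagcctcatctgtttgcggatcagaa
HK2 (chr2:74834920-74835219, plus strand): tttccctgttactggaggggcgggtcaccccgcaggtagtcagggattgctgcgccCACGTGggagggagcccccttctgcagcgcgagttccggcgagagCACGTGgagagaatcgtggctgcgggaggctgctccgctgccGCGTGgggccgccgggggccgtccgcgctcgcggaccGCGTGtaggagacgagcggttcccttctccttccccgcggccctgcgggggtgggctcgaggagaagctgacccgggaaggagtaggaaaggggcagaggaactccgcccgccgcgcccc
GPI (chr19:34364742-34365041, plus strand): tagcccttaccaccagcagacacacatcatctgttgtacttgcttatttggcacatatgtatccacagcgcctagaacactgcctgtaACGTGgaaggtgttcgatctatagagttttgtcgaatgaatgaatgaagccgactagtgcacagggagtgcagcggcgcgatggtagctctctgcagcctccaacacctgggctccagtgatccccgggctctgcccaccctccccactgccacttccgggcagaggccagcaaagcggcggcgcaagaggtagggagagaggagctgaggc

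The ALDOC window held 3 matches to ACGTG, 2 to GCGTG and 1 CACGTG. The HK2 window shown held 4, 2 and 2, and the GPI window a single ACGTG. Of the 33 genes, 30 matched the RefSeq windows, with 61 windows between them, and SLC2A3, PFKFB2 and SLC16A1 had no entry. ACGTG stood in 34.4% of the 61 windows and in 21.4% of all 35116 windows of the same length, GCGTG in 45.9% and 36.5%, and CACGTG in 11.5% and 7.26%. Some windows of the same gene overlap, as for PFKM and MPC2, so a single match can count in more than 1 window. The shares were not adjusted for the base composition of the windows. Motif-rich windows were not limited to genes that were called: LDHA had a window with 5 ACGTG, 1 GCGTG and 2 CACGTG and PDHB one with 3, 3 and 1, while the PFKFB4 window held 1 GCGTG and neither of the others. A match of letters describes the window and is no measure of binding.

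Among the PFKFB enzymes, PFKFB4 was at 32.1, 45.5 and 42.2 CPM in WT and at 54.8, 56.6 and 46.0 CPM in LSD1 KO. The groups did not overlap, though LSD1 KO replicate 3 lay close to WT replicate 2. The log2 difference was 0.40 ± 0.13 with the block (SE; edgeR q = 0.234). PFKFB3, the isoenzyme with the highest kinase activity relative to its phosphatase activity, had means of 57.7 ± 6.15 and 53.0 ± 4.86 CPM, and PFKFB2, known best from heart, 20.6 ± 3.56 and 18.3 ± 2.14 CPM (SD, n = 3 each). PFKFB2 was lower in LSD1 KO in all 3 pairs, yet neither gene passed the test, with blocked log2 differences of -0.16 and -0.12 for PFKFB2 and PFKFB3. Per kilobase, PFKFB4 made up 39.9%, 44.5% and 41.0% of the 3 enzymes in WT and 51.5%, 55.2% and 46.0% in LSD1 KO, and PFKFB3 fell from a mean of 47.5% ± 1.5 to 40.3% ± 3.88 (SD, n = 3 each). Neither share overlapped between groups (exact permutation p = 0.1 each, the smallest possible). Per kilobase, PFKFB4 was larger than PFKFB3 in every LSD1 KO library, and PFKFB3 was larger in every WT library. The order in LSD1 KO depends on the transcript lengths used (3499 bases for PFKFB4 and 4482 for PFKFB3). In CPM, PFKFB3 was still the larger in LSD1 KO replicates 1 (55.7 against 54.8) and 3 (56.0 against 46.0).

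**Figure D2:**
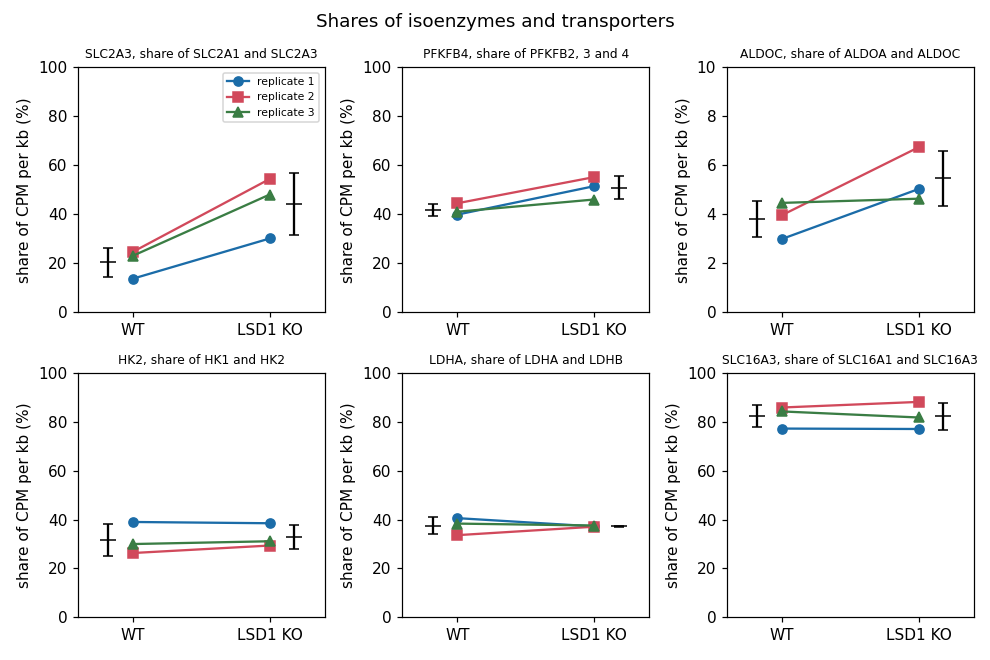
Share of 1 gene in the summed CPM per kilobase of its transporter or isoenzyme family (percent, y axis from 0, the ALDOC panel ending at 10), by library in WT and LSD1 KO, with lines joining the same replicate number and bars for mean and SD of 3 libraries. The SLC2A3, PFKFB4 and ALDOC shares do not overlap between groups, and the HK2, LDHA and SLC16A3 shares do.

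Lower glycolysis, from GAPDH to pyruvate kinase, held the 2 transcripts with the highest mean level per kilobase of the set in both groups (GAPDH and ENO1) and no gene past the q threshold. GAPDH, the dehydrogenase that makes NADH, was at 4052 to 5430 CPM in WT and at 4293 to 7139 CPM in LSD1 KO, where replicate 2 stood far above the other libraries. Its blocked log2 difference was 0.15 ± 0.10 (SE; edgeR q = 0.575), with an interval of -0.08 to 0.38. PGK1, the first ATP-yielding kinase, stood at 518, 647 and 502 CPM in WT and at 657, 766 and 551 CPM in LSD1 KO. It was higher in each pair and overlapped between groups, with a blocked difference of 0.24 ± 0.09 (SE; edgeR q = 0.281).

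ENO2, the neuron-type enolase, was at 99.7, 151 and 142 CPM in WT and at 120, 234 and 141 CPM in LSD1 KO. It was level in replicate 3 and differed most in replicate 2, and its blocked difference was 0.30 ± 0.12 (SE; edgeR q = 0.351). Without LSD1 KO replicate 2, the fit with no block gave -0.02 for ENO2. ENO1, the main enolase at 2452 ± 450 CPM in WT and 2758 ± 447 CPM in LSD1 KO (SD, n = 3 each), differed by 0.17 in the blocked fit and was higher in all 3 pairs. ENO3, the muscle enolase, was at 4.95 to 7.95 CPM throughout, with no direction that held, its difference being -0.01 without the block and 0.01 with it. PGAM1, the mutase, and PKM, pyruvate kinase, differed by -0.02 and 0.11, with upper 95% bounds of 0.17 and 0.33. PGAM1 shares 47.3% and GAPDH 24.7% of their 31-base words with other genes, and their closest matches, PGAM4 and GAPDHP1, held 1 and 2 counts over all 6 libraries.

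None of the 4 lactate genes passed the test, and all 4 had intervals around 0 that were narrower with the block than without it. LDHA and LDHB, which encode the muscle-type and heart-type subunits of lactate dehydrogenase, had means of 895 ± 92.9 and 880 ± 200 CPM in WT and of 875 ± 154 and 858 ± 160 CPM in LSD1 KO (SD, n = 3 each). The proton-coupled exporters SLC16A1 (MCT1) and SLC16A3 (MCT4) had 141 ± 15.4 and 472 ± 106 CPM in WT and 141 ± 29 and 470 ± 116 CPM in LSD1 KO. None of these 4 genes was on the same side in all 3 pairs. Blocked log2 differences ran from -0.04 to -0.01. The 95% intervals give the sizes of difference still possible. With the block they were -0.24 to 0.16 (LDHA), -0.24 to 0.18 (LDHB), -0.24 to 0.21 (SLC16A1) and -0.23 to 0.21 (SLC16A3). Without the block they were -0.47 to 0.41, -0.55 to 0.48, -0.44 to 0.43 and -0.55 to 0.54 for these genes in order. The LDHA share of lactate dehydrogenase per kilobase was 37.5% ± 3.55 in WT and 37.3% ± 0.25 in LSD1 KO, and the SLC16A3 share of the exporters 82.4% ± 4.58 and 82.3% ± 5.56 (SD, n = 3 each). LDHB shares 31.4% of its 31-base words with other genes, 30.6% with 1 gene listed at no more than 1.14 CPM.

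At the entry of pyruvate into mitochondria, none of the 6 genes passed the test. PDK3, a kinase that inhibits pyruvate dehydrogenase, was the only one higher in all 3 pairs, at 43.6, 35.4 and 46.1 CPM in WT and 46.1, 44.5 and 53.0 CPM in LSD1 KO, with a blocked difference of 0.21 ± 0.10 (SE; edgeR q = 0.403). PDK1, the family member best known as a hypoxia target, had 27.9 ± 3 CPM in WT and 28.6 ± 2.79 CPM in LSD1 KO (SD, n = 3 each), a blocked difference of 0.04 with an interval of -0.19 to 0.27. PDHA1 and PDHB, the subunits of the E1 enzyme, differed by -0.10 and -0.03, and MPC1 and MPC2, which form the mitochondrial pyruvate carrier, by -0.05 and 0.14. MPC2 varied more with replicate number than with genotype, at 20.1, 40.6 and 24.8 CPM in WT and 26.4, 46.2 and 22.2 CPM in LSD1 KO. FBP1, the gluconeogenic fructose bisphosphatase, was at or near 0, with at most 4 counts in any library (0, 3 and 0 in WT; 0, 2 and 4 in LSD1 KO), and was not tested. PGM1, which links glycolysis to glycogen, differed by -0.09 in the blocked fit, with an interval of -0.32 to 0.13.

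Across the set, 4 genes had LSD1 KO libraries all above the WT libraries (SLC2A3, HK2, GPI and PFKFB4), where 4.23% of all genes tested did, and 1 had them all below (SLC2A1), where 3.51% did. In all 3 same-numbered pairs, 11 of the 32 were higher in LSD1 KO, where 18.8% of all genes were, and 2 were lower (SLC2A1 and PFKFB2), where 17.5% were, and the other 19 were mixed. The pairs were unequal. In pair 1, 28 of the 32 were higher in LSD1 KO, in pair 2 19 and in pair 3 13, while for all genes tested the shares were 51.8%, 49.9% and 49.8%. For 25 of the 32 the blocked 95% interval lay within 0.5 of 0 on the log2 scale, which held for 48% of all genes tested. The other 7 were SLC2A3, ALDOC, HK1, HK2, GPI, PFKFB4 and ENO2. Without the block, the interval lay within 0.5 of 0 for 7 of the 32, and the share of all genes is not given here.

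**Figure D3:**
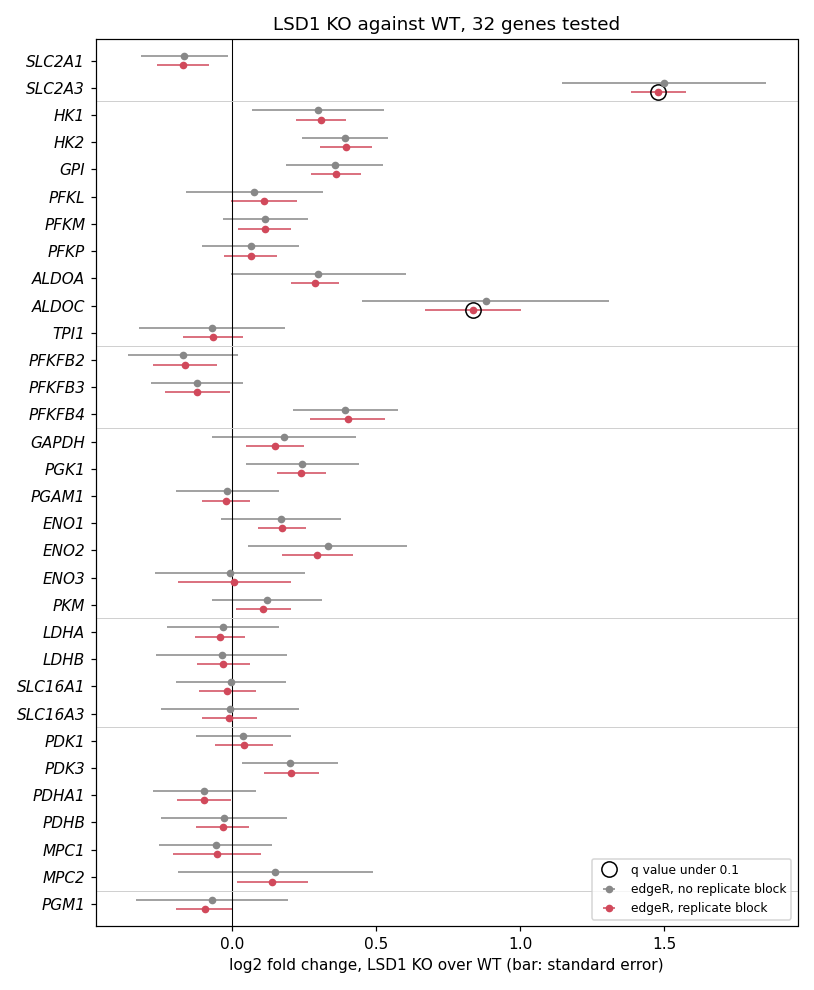
Log2 difference of LSD1 KO over WT for the 32 genes tested (x axis; bars are standard errors), without the replicate block in grey and with it in red, in order of role. Circles mark a q value under 0.1, which SLC2A3 and ALDOC reach with the block, and the 4 lactate genes lie within 0.05 of 0.

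More genes of the set differed by replicate number than by genotype. An edgeR F test of the replicate number, with genotype in the model, called 19 of the 32 genes (59.4%), where it called 41.2% of all genes tested. Replicate 2 was the highest library in both groups for 20 of the 32 (62.5%), which held for 25.1% of all genes, and replicate 1 was the lowest in both for 12 (37.5%), which held for 22.3% of all genes. MPC2 was 1.87 times and ALDOA 1.90 times as high in replicate 2 as in replicate 1, taking the mean of both groups. SLC2A3 (2.18 times) and ALDOC (2.60 times) varied with replicate number as well as with genotype. SLC2A1, HK2, PFKM and PFKFB4 had q values of 0.426, 0.50, 0.856 and 0.39 for the replicate number in the edgeR test. HK2, PFKM and PFKFB4 were higher in LSD1 KO in every pair, though PFKM was nearly level in pair 2 (log2 difference 0.0017). What distinguished the replicate numbers was not given in the sources used here.

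**Figure D4:**
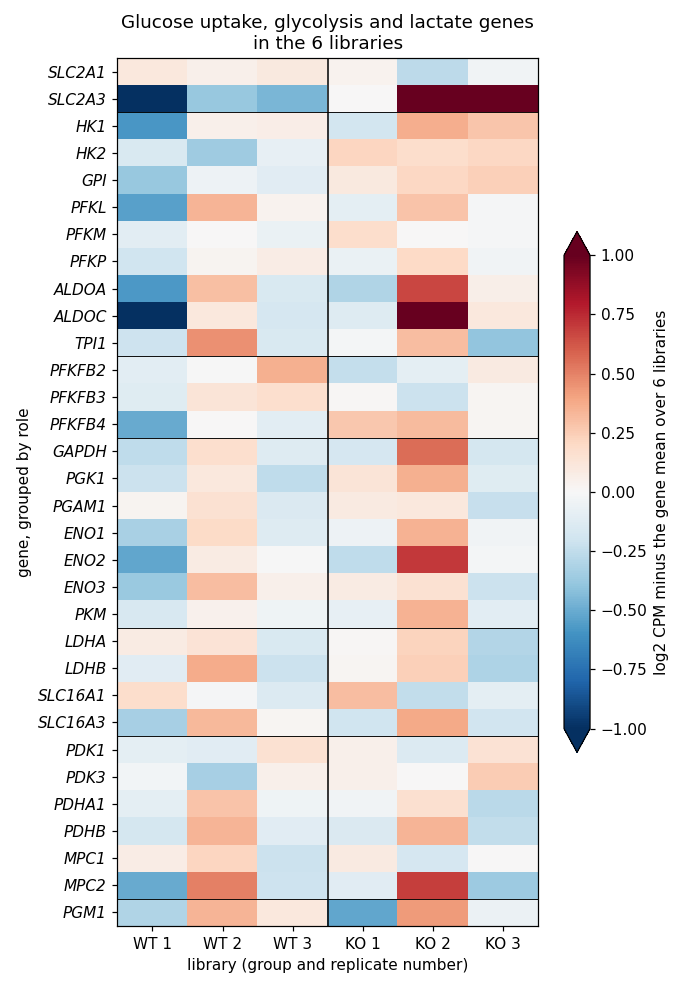
Log2 CPM minus the mean over 6 libraries for the 32 genes tested (rows, in order of role) in each library (columns); colours stop at 1 in either direction. The replicate 2 columns are red for most rows in both groups, and SLC2A3 is the row whose LSD1 KO libraries differ most from WT.

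Lists of 115 further genes of glucose metabolism and its regulators were taken beside the set, of which 90 were tested. Without the block, edgeR called none (3 had an unadjusted p under 0.05, all higher) and DESeq2 called 1, MLXIPL. With the block, edgeR called 1 of the 90 higher and none lower, where 1.05% and 0.549% of all genes tested were, so the count was near the background. DESeq2 with the block called 5 higher and 2 lower, where 4.21% of all genes were called, 2.53% higher. The gene called by the blocked edgeR fit was MLXIPL, encoding ChREBP, the transcription factor that responds to glucose metabolites. It stood at 37.4, 42.5 and 44.7 CPM in WT and at 68.9, 72.0 and 67.6 CPM in LSD1 KO, with no overlap. Its log2 difference was 0.74 ± 0.15 without the block (SE; edgeR q = 0.453) and 0.75 ± 0.10 with it (edgeR q = 0.018), a 1.68-fold rise, and DESeq2 without the block gave q = 0.053.

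The other genes that DESeq2 called higher with the block were PGM2L1, which makes glucose-1,6-bisphosphate, PDP1, the phosphatase that reactivates pyruvate dehydrogenase, and the hypoxia-inducible factor subunits HIF1A and EPAS1. Their blocked edgeR differences were 0.64, 0.36, 0.31 and 0.41 on the log2 scale, with edgeR q values of 0.123, 0.203, 0.172 and 0.10, none under 0.1. The 2 lower were PHGDH and PSAT1, the first steps of the branch from glycolysis to serine, at -0.35 and -0.49 with edgeR q values of 0.143 and 0.136. These 6 and TXNIP were named after their values were seen. TXNIP, a glucose-induced inhibitor of glucose uptake, was listed at 0 counts in all 6 libraries and gave no value. Of the 20 genes of the tricarboxylic acid cycle, none had an unadjusted p under 0.05 in the blocked edgeR fit, and their blocked log2 differences ran from -0.08 to 0.26.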

How the data were processed

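Polyadenylated RNA was sequenced on an Illumina HiSeq 2500. The authors trimmed reads with Trimmomatic (0.39), quantified them against GENCODE transcripts with Salmon (1.4.0) and deposited 1 table of expected counts per gene, already whole numbers. How transcripts were summed to genes, and any use of strand, was not given in the sources used here, so reads of overlapping or antisense genes cannot be told apart. Pairs of libraries of the same group differed by far more than sampling noise.

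The table was fitted whole with edgeR (4.0.16): filterByExpr by group, TMM, and the quasi-likelihood test of LSD1 KO against WT, with q under 0.1 over the 17672 genes tested, the threshold of the study. Same-numbered libraries deviated together (r = 0.553, 0.553 and 0.404 across genes for numbers 1, 2 and 3), so values with the replicate number as a block are given beside those without. DESeq2 (1.42.0), other scaling factors and filters, and leaving out libraries were alternatives, and leaving out whole pairs under the block was added after the data were seen. Fits were also run on counts simulated with replicate effects and the library spread of the blocked fit, so these runs follow the blocked model. Their outcome is not given here. Levels between genes use CPM per kb of the Ensembl canonical transcript (GENCODE v44lift37), and positions come from RefSeq on GRCh38.p14. Shares of 31-base words compare each gene's annotated transcripts with those of all other genes. The set and the lists were chosen with earlier results of these data known. Named genes are all 33, KDM1A, and list genes called by edgeR with or without the block; list genes called only by DESeq2 with the block, and TXNIP, were added after their values were seen. Per-library values in full were kept for genes called, or with an unadjusted p under 0.05 in the blocked fit, and for a few others chosen after their values were seen.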

Additional observations from a re-analysis of the deposited data

How the results depend on the processing

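KDM1A, the 1 gene called without the block, was called in every alternative run. Instead of 1 gene in all and 0 of the 32, keeping every gene with a count called 114 and 1, DESeq2 95 and 1, the replicate block 282 and 2, and DESeq2 with the block 597 and 5. Leaving out 1 library gave 1 to 26 genes, the 26 without LSD1 KO replicate 2, and none of the 32. Under the block with 1 pair left out, 198, 428 and 1055 genes (without pairs 3, 1 and 2) and 2 to 4 of the 32 were called: SLC2A3 and ALDOC without pair 1 or pair 3, and these with GPI and PFKFB4 without pair 2. In the fit without the block, other scaling factors, a minimum of 10 counts in every library and a q threshold of 0.05 left both counts as they were. With the block, SLC2A3 (edgeR q = 0.001) passed a threshold of 0.05 and ALDOC (edgeR q = 0.077) did not. Of the lists, 1 gene was called with the block and 1 by DESeq2. The median log2 difference of the 32 ran from -0.0498 (without LSD1 KO replicate 2) to 0.163 when 1 library was left out. The replicate-number test called 19 or 20 of the 32 in all settings run. The block changed no other call than those given.

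Of 512 alternatives over the 32 genes, 440 kept direction and side of the threshold, 17 became calls and 55 reversed in 19 genes. With all libraries, 1 gene reversed, ENO3, at 0.0077 with the block and 0.0045 in DESeq2 with the block. The cause was not tested. Leaving out 1 library, the log2 differences of the genes that reversed ran from -0.129 to 0.285 for PFKL, -0.0408 to 0.115 for PFKP, -0.0264 to 0.546 for ALDOA, -0.276 to 0.169 for TPI1, -0.124 to 0.309 for GAPDH, -0.0939 to 0.0847 for PGAM1, -0.0223 to 0.517 for ENO2, -0.17 to 0.156 for ENO3, -0.0589 to 0.202 for PKM, -0.178 to 0.0943 for LDHA, -0.189 to 0.161 for LDHB, -0.181 to 0.092 for SLC16A1, -0.246 to 0.164 for SLC16A3, -0.0256 to 0.13 for PDK1, -0.222 to 0.0254 for PDHA1, -0.246 to 0.148 for PDHB, -0.17 to 0.0339 for MPC1, -0.248 to 0.49 for MPC2 and -0.358 to 0.135 for PGM1. Under the block with 1 pair left out, they ran from -0.0521 to 0.194 for PFKL, -0.00534 to 0.152 for PFKP, -0.193 to 0.0233 for TPI1, -0.0643 to 0.0138 for PGAM1, -0.21 to 0.146 (0.0763 without pair 2) for ENO3, -0.00954 to 0.196 for PKM, -0.123 to 0.0102 for LDHA, -0.113 to 0.00398 (0.0037 without pair 3) for LDHB, -0.0955 to 0.0741 for SLC16A1, -0.0769 to 0.0938 for SLC16A3, -0.0171 to 0.0687 for PDK1, -0.0666 to 0.0202 for PDHB and -0.181 to 0.095 for MPC1.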
